A study of Mus musculus with 3 samples.

Results

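Transcript levels of 7 genes of the cardiac pacemaker and conduction system were examined in 3 wild-type mouse hearts collected on day 9 of life. The mice were C57BL/6J, an inbred strain. The genes are the channel genes Hcn2, Hcn3 and Hcn4, the transcription factor genes Shox2, Isl1 and Etv1, and the cell adhesion gene Cntn2. They were picked by symbol from the 18038 genes of a table of read counts and FPKM. The rule used no measured value, but the set was chosen with earlier results of these data known. The hearts carry replicate numbers 1 to 3 and form a single group, so genes were compared with each other inside each heart, and the hearts were compared only for their spread. Separate animals or litters are not stated in the labels, and p-values therefore reflect only the spread of these samples, possibly technical. The samples are labelled heart without further dissection, and nodal, Purkinje and working myocardium were measured together. In such bulk tissue, fewer cells of a type and less RNA per cell cannot be told apart.

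The heartbeat starts in the sinoatrial node, whose cells depolarise by themselves, partly through the hyperpolarisation-activated current carried by HCN channels. Shox2 and Isl1 are transcription factors of the nodal programme, and Shox2 keeps the working-muscle factor Nkx2-5 low in the node. From the node the impulse crosses the atria and the atrioventricular node and enters the His-Purkinje network. Cntn2 encodes contactin 2, a glycosylphosphatidylinositol-anchored adhesion molecule that marks Purkinje cells in the mouse heart, and Etv1 is an ETS factor needed for rapid conduction in atrial and Purkinje fibres.

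Library totals were between 17766501 and 18768094 counts. A gene was called detected at 1 CPM (counts per 1000000 of the library) or more in every heart, which 71.8% of all genes reached. Of the 7 genes, 5 were detected, and Isl1 and Hcn3 were below this minimum. Cardiomyocyte markers were high, with Myl2, the ventricular regulatory light chain, at 26128 ± 998 TPM (FPKM rescaled so that each heart sums to 1000000; SD, n = 3 throughout). Heart 1 stood apart in lung airway genes. The 12 lung and airway markers summed to 1737 TPM in heart 1, 3.60 TPM in heart 2 and 10.2 TPM in heart 3, with Scgb1a1, the club cell secretory protein gene, at 4096, 1 and 13 counts and Lamp3 at 0 in every heart. The part of airway tissue in the values below was not tested. Each level, share, pair ratio and variation test of the 7 genes was also computed without heart 1.

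The promoters of the 7 genes were compared first, because their base composition is a property that the choice of genes did not use. RefSeq promoter windows of GRCm38.p6, which span 250 bases before to 50 bases after a start, were available for 6 of the genes, with a pair of windows for Etv1. The 200 bases before the start are shown for the pair of most abundant channel genes and for both nodal transcription factor genes, 5′ to 3′ on the strand of the gene. The length shown was chosen after the sequences were seen, so that it holds the GC boxes of Hcn4. Capitals mark GC boxes (GGGCGG on either strand) and CCAAT boxes (CCAAT on either strand). These motifs do not overlap each other in the windows shown. Hcn2 is read from chr10:79716434-79716633 on the plus strand, Hcn4 from chr9:58822749-58822948 on the plus strand, Shox2 from chr3:66981772-66981971 on the minus strand and Isl1 from chr13:116309689-116309888 on the minus strand.
Hcn2: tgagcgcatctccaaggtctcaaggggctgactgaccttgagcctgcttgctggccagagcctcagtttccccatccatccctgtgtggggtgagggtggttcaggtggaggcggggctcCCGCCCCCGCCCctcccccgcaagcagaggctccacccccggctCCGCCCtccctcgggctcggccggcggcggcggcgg
Hcn4: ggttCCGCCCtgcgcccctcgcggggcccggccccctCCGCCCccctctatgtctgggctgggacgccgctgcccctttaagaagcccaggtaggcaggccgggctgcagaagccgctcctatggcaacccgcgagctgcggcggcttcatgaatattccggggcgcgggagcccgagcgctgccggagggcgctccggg
Shox2: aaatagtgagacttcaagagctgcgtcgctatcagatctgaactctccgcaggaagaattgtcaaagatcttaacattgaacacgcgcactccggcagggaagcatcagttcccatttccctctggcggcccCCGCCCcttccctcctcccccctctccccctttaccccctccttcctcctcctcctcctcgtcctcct
Isl1: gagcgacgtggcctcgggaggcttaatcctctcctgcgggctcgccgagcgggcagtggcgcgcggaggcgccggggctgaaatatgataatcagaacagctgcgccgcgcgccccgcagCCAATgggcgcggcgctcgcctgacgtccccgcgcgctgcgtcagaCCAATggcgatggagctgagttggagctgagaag

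The Hcn2 stretch holds 3 GC boxes and the Hcn4 stretch 2, Shox2 holds 1, and Isl1 holds 2 CCAAT boxes and no GC box. The RefSeq start used for Hcn4 lies 563 bases upstream of the start in the deposited table, and that of Isl1 33 bases downstream, whereas those of Hcn2 and Shox2 are the same in both. The Cntn2 and Etv1 windows lie wholly downstream of the deposited starts. The Cntn2 window spans 132542891 to 132543190 on the minus strand, with a deposited start of 132543251. The Etv1 windows begin at 38779832 and 38783461 on the plus strand, with a deposited start of 38779569. In the whole windows of 300 bases, Isl1 held 37 CpG dinucleotides, Hcn4 31, Hcn2 26, Cntn2 13, Shox2 11, and the Etv1 windows 12 and 3, against a median of 7 over 32851 mouse promoter windows. Isl1 and Hcn4 thus lay above 94.4% and 89.4% of promoters in CpG number, while 1 Etv1 window lay above only 23.3%. A GC box occurred in 35.7% of all windows and a CCAAT box in 37.4%. The TATA box letters (TATAAA) were found in the Shox2 window and in the downstream Etv1 window, against 13.6% of all windows. The Shox2 match does not lie within the 200 bases shown. An ETS core (CCGGAA) was found in Hcn4, against 14.9% of all windows. All motifs were searched on both strands and were chosen after the files were read. No match to a T-box site (GGTGTGA) or to the MEF2 site was found in the 7 windows, which says only that these letters are not there. These sites occurred in 3.98% and 3.69% of all windows.

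Hcn2 was the most abundant of the 7 transcripts. HCN2 is the channel form shared by atrial and ventricular muscle and the node, and its gene (Entrez gene ID 15166) spans positions 79716634 to 79736108 of chromosome 10 on the plus strand of GRCm38.p6. It had 25.0, 29.1 and 33.5 TPM in hearts 1, 2 and 3, from 706, 845 and 1014 counts, a mean of 29.2 ± 4.26 TPM. Heart 3 was the highest and heart 1 the lowest, and 4804 of 18038 genes had a higher mean.

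Hcn4 encodes the main pacemaker channel of the sinoatrial node (ID 330953, chromosome 9, 58823512 to 58860955, plus strand). It had 9.36, 11.4 and 6.84 TPM, from 316, 395 and 247 counts, a mean of 9.20 ± 2.28 TPM, close to the middle of the table at percentile 49.6. Here heart 2 was the highest and heart 3, the highest heart for Hcn2, was the lowest. Every heart had more Hcn2 than Hcn4, and the ranges of the genes did not overlap. The log2 ratio of Hcn2 to Hcn4 within hearts was 1.68 (SE 0.219, 95% interval 1.15 to 2.21, edgeR adjusted p = 0.000307), a 3.21-fold higher level of Hcn2.

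Hcn3 (ID 15168, chromosome 3, 89146775 to 89160230, minus strand), the HCN form of ventricular muscle and brain in mice, had 4, 5 and 7 counts. These correspond to 0.137, 0.160 and 0.232 TPM, with exact Poisson 95% intervals of 0.0373 to 0.350, 0.0520 to 0.373 and 0.0933 to 0.478 TPM that cover counting error only. The intervals overlap, and no difference between hearts was detectable at this depth. In the GENCODE annotation of the same build, 711 of 4154 exonic bases of Hcn3 (17.1%) overlap exons of Pklr, a pyruvate kinase gene on the opposite strand. Pklr had 6, 0 and 0 counts in hearts 1, 2 and 3. How reads in the overlap were assigned is not known, and their part in the Hcn3 counts was not tested.

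Hcn2, Hcn3 and Hcn4 summed to 34.5, 40.7 and 40.6 TPM in hearts 1, 2 and 3. Hcn2 made up 72.5%, 71.6% and 82.6% of this sum. Hcn4 made up 27.1%, 28.0% and 16.9%, and Hcn3 made up 0.397%, 0.393% and 0.571%. Hearts 1 and 2 thus had nearly the same composition, and heart 3 had a larger Hcn2 share and a smaller Hcn4 share. The log2 ratio of Hcn4 to Hcn2 TPM was -1.42, -1.35 and -2.29, a mean of -1.69 ± 0.525. An exact sign-flip test over 3 hearts cannot go below p = 0.25, so the shares carry no test. Mean shares were 75.5% ± 6.10 for Hcn2 and 24.0% ± 6.20 for Hcn4. They depend on gene length: with the longest annotated transcripts they were 83.0% and 16.6%.

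**Figure D1:**
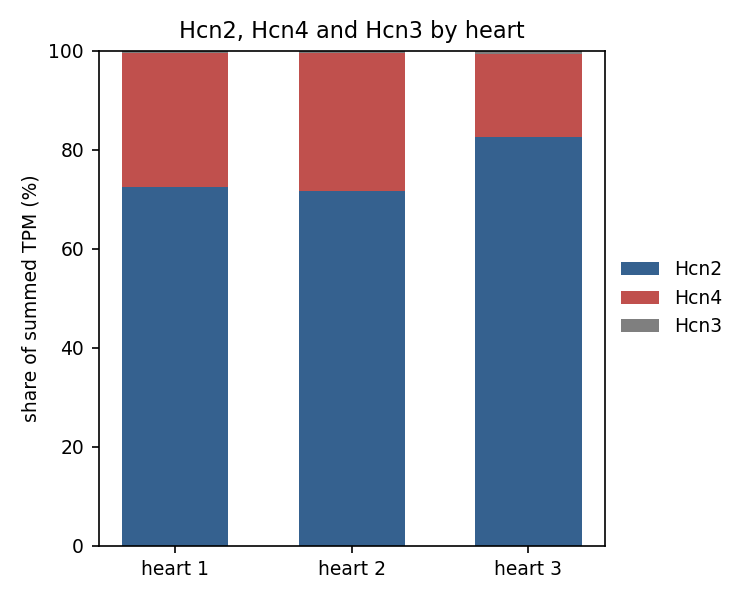
Share of the summed TPM of Hcn2, Hcn4 and Hcn3 (percent, vertical axis) held by each gene in each of the 3 hearts, drawn as stacked bars from 0 to 100. Hcn4 holds 27.1% and 28.0% in hearts 1 and 2 and 16.9% in heart 3, and Hcn3 is a thin line at the top.

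Of the list of HCN channel and partner genes, 7 besides those described above were in the table. Of these, 5 were detected, against 71.8% of all genes. Cav3, the muscle caveolin that binds HCN4, was the most abundant at 182 ± 9.00 TPM. Nedd4l, a ubiquitin ligase of membrane channels, was at 14.0 ± 1.29 TPM and Mrvi1, whose product is related to the HCN4 regulator LRMP, at 9.55 ± 1.06 TPM. Kcne2, an accessory beta subunit, and Pex5l, the neuronal HCN partner TRIP8b, were the pair below the detection minimum, both at 0.36 TPM; they are named here after their values were seen. None of these listed genes varied between hearts past the threshold of the test described below.

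Etv1 (ID 14009, chromosome 12, 38779569 to 38870479, plus strand) was the most abundant of the transcription factor genes. It had 10.7, 12.3 and 11.1 TPM, from 359, 433 and 398 counts, a mean of 11.4 ± 0.850 TPM. The hearts lay close together, with a coefficient of variation of 7.47%, against a median of 8.83% over all detected genes. Shox2 (ID 20429, chromosome 3, 66971723 to 66981771, minus strand) had 3.75, 3.72 and 3.07 TPM, from 90, 95 and 81 counts, a mean of 3.52 ± 0.383 TPM. Hearts 1 and 2 were nearly equal and heart 3 was lower. Of its annotated exonic bases 4.62% overlap Rsrc1, a splicing factor gene on the opposite strand at 17.8 ± 1.65 TPM. Without a stated strand setting, reads in this overlap cannot be told apart.

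Isl1 (ID 16392, chromosome 13, 116298257 to 116309721, minus strand) also marks second heart field progenitors and cardiac neurons. It had 12, 11 and 11 counts, which correspond to 0.547, 0.480 and 0.483 TPM, a mean of 0.504 ± 0.0380 TPM. The counts were nearly identical in the 3 hearts, but the exact Poisson 95% interval for 11 counts runs from 5.49 to 19.7 counts. Isl1 passed a lower minimum of 0.5 CPM in every heart, and Hcn3 did not.

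Among 13 other transcription factor and regulator genes of the nodes, all 13 were detected, against 71.8% of all genes. None varied between hearts past the threshold, against 1.80% of all genes tested. The highest were Nkx2-5, the homeobox factor of working myocardium, at 150 ± 5.23 TPM, Gata4 at 118 ± 4.12, Gata6 at 114 ± 22.9 and Tbx5 at 56.1 ± 9.33 TPM. Tbx3, the T-box repressor that sets nodal identity, was at 12.3, 12.9 and 11.2 TPM, and Tbx18, a factor of the sinoatrial node head, at 10.9, 11.2 and 8.25 TPM. The mean levels of Tbx3 (12.1 ± 0.847 TPM) and Tbx18 (10.1 ± 1.63 TPM) were near those of Etv1 and Hcn4. Shox2 at 3.52 TPM and Isl1 at 0.504 TPM lay below both.

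Cntn2 (ID 21367, chromosome 1, 132509425 to 132543251, minus strand) had 5.47, 3.72 and 2.92 TPM, from 455, 314 and 256 counts, a mean of 4.04 ± 1.31 TPM. Heart 1 was the highest, at 1.88 times the level of heart 3. Its deposited counts were not whole numbers, and how the fractions arose is not known. The gene length implied by the authors' count and FPKM was 9094 bases, against 3716 bases for Hcn4. In CPM, without length, Cntn2 (18.7 ± 6.20) was close to Hcn4 (17.4 ± 4.03). Contactin 2 is also a neuronal adhesion molecule, so markers of cardiac neurons and glia were measured beside it. Of 18 such markers, 11 were detected, against 71.8% of all genes. The summed level of the 18 was 172 TPM in heart 1, 121 TPM in heart 2 and 139 TPM in heart 3. Among the highest mean levels were those of Hand2, which cardiac muscle also expresses, at 79.3 ± 14.8 TPM, Stmn2, a neuronal stathmin gene, at 11.9 ± 1.12 TPM, and Gap43, a growth cone gene, at 6.97 ± 0.495 TPM. The part of nerve in the Cntn2 values was not tested.

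**Figure D2:**
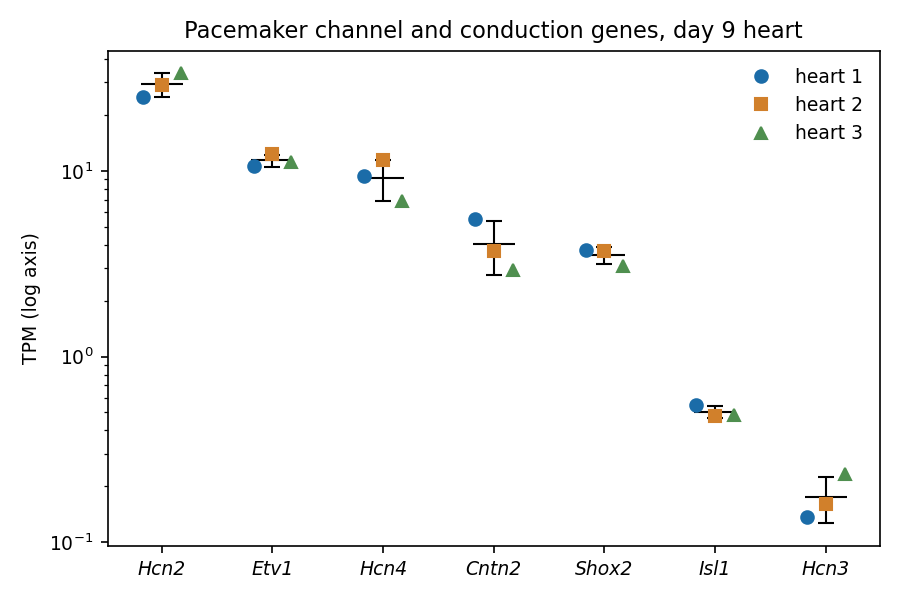
TPM of the 7 genes on a logarithmic axis, with 1 symbol per heart and the mean and SD over 3 hearts as a bar with whiskers, ordered by mean level. Hcn2 lies at 25.0 to 33.5 TPM, above all others, and Isl1 and Hcn3 lie below 1 TPM.

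In the order of mean TPM the genes ran Hcn2, Etv1, Hcn4, Cntn2, Shox2, Isl1 and Hcn3. Their median was 4.04 TPM, against 9.41 TPM over all genes of the table. Each of the 21 pairs was compared within hearts with the edgeR quasi-likelihood test, adjusted over all 106302 tests of the 7 fits that set every gene against 1 of the 7. Of these tests 87.7% passed the adjusted threshold of 0.05, and of the 21 pairs 18 did (85.7%), a share near that of genes in general. The order was the same in all 3 hearts for 20 of the 21 pairs.

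The 3 pairs that did not pass were neighbours in the order. Etv1 exceeded Hcn4 in 3 of 3 hearts by a log2 ratio of 0.33, with a 95% interval of -0.08 to 0.74 (edgeR adjusted p = 0.107). Cntn2 and Shox2 had a log2 ratio of 0.16, with a 95% interval of -0.38 to 0.70 (edgeR adjusted p = 0.525). Their FPKM was equal in heart 2, and Cntn2 was higher in heart 1 only. Without heart 1 that ratio was -0.06 (edgeR adjusted p = 0.797). With longest transcript lengths it passed the threshold, at 0.66 (edgeR adjusted p = 0.0285). When length was ignored it was 1.91, also past the threshold (edgeR adjusted p = 0.000201). Isl1 over Hcn3, both at few counts, had a log2 ratio of 1.52 with an interval of 0.05 to 2.98 (edgeR adjusted p = 0.0507). It was higher in 3 of 3 hearts, and the adjusted p lay between 0.0174 and 0.130 over the alternatives. None of these 3 results shows that the levels of a pair are equal.

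Other neighbours were separated. Hcn2 lay 1.35 log2 units above Etv1 in 3 of 3 hearts, with a 95% interval of 0.98 to 1.73 (edgeR adjusted p = 0.000162). Shox2 lay 2.80 log2 units above Isl1, with an interval of 1.77 to 3.83 (edgeR adjusted p = 0.000693). Hcn4 lay 1.21 log2 units above Cntn2, with an interval of 0.72 to 1.69 (edgeR adjusted p = 0.00107). This call and that of Etv1 over Cntn2 (1.54, edgeR adjusted p = 0.000524) rest on the gene lengths used. Implied and longest lengths were 3716 and 6118 bases for Hcn4, 3719 and 6576 for Etv1, and 9094 and 7334 for Cntn2. With longest transcript lengths the ratios were 0.18 and 0.41 (edgeR adjusted p = 0.422 and 0.121), and without a length correction -0.08 and 0.25 (edgeR adjusted p = 0.703 and 0.318). Over all alternatives the adjusted p ran up to 0.703 for Hcn4 over Cntn2 and up to 0.318 for Etv1 over Cntn2. The largest ratio was Hcn2 over Hcn3, at 7.38 (95% interval 6.21 to 8.54).

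**Figure D3:**
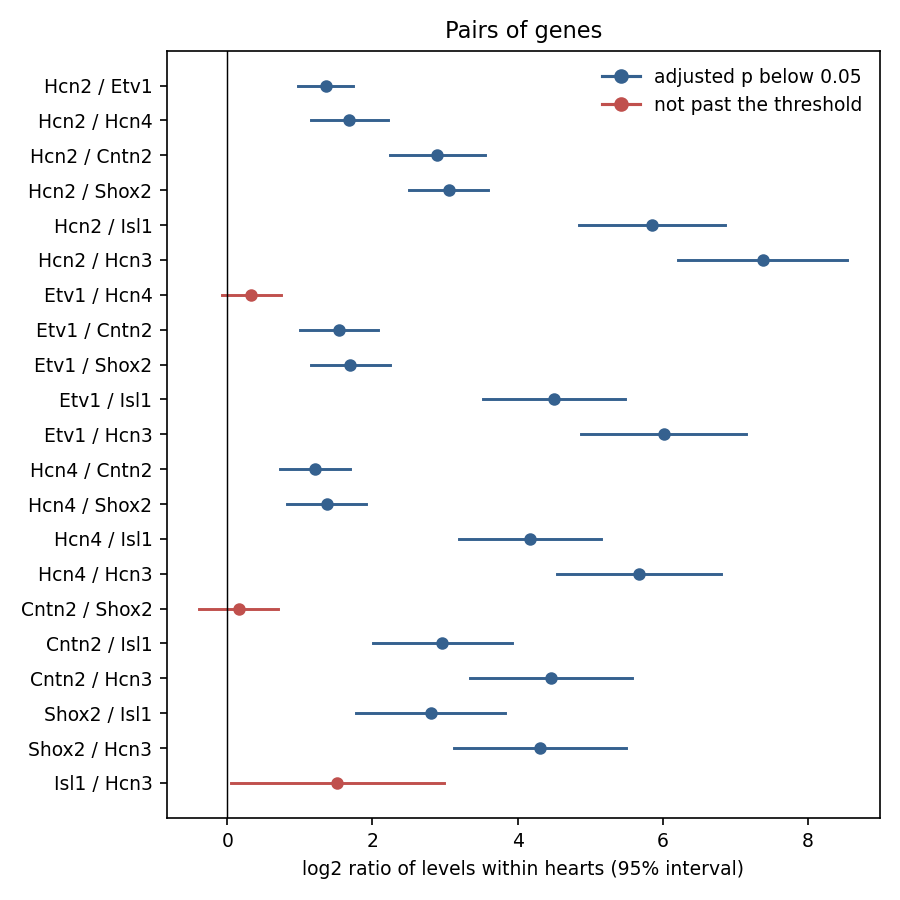
Log2 ratio of levels within hearts for each of the 21 gene pairs (horizontal axis), the gene with the higher mean TPM on top of the ratio, with 95% intervals from the edgeR quasi-likelihood fit. Blue pairs have an adjusted p below 0.05, and the 3 red pairs, Etv1 / Hcn4, Cntn2 / Shox2 and Isl1 / Hcn3, do not.

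Whether a gene differed between hearts more than genes of its level do was asked of 15187 genes by edgeR's goodness of fit, limited to genes with at least 10 counts in all. All 7 genes passed that filter. Of all genes tested, 274 (1.80%) had an adjusted p below 0.05, and of the 7 genes 0 did. At an unadjusted p below 0.05 there was 1 of the 7 genes, Cntn2, against 894 (5.89%) of all genes tested. Cntn2 had an edgeR adjusted p of 0.285. Hcn4 and Hcn2 followed with unadjusted edgeR goodness of fit p of 0.0735 and 0.139, at percentiles 93.0 and 90.1 of the statistic over all genes. Etv1, Shox2 and Isl1 had percentiles of 47.8, 22.4 and 3.68. The statistic is scaled by the spread usual at a gene's level, which is wide at few counts. A low percentile is therefore not a small spread. The coefficient of variation of Shox2 was 10.9%, above the median of 8.83% over all detected genes. Without heart 1 the unadjusted edgeR p of Cntn2 was 0.184, and that of Hcn4 was 0.00145 (edgeR adjusted p = 0.137). No left-out heart, scaling or filter brought any of the 7 past the adjusted threshold.

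**Figure D4:**
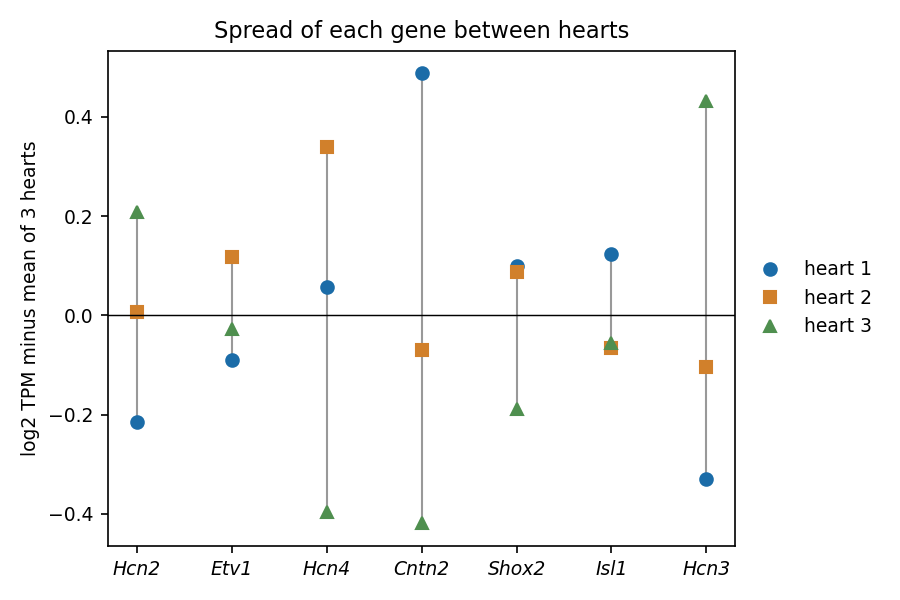
Log2 TPM of each gene in each heart minus the mean of its 3 hearts (vertical axis), with 1 symbol per heart and a grey line over the range. Cntn2 spreads most, with heart 1 highest, Hcn4 has heart 2 highest and heart 3 lowest, Hcn2 has heart 3 highest, Hcn3 spreads widely on 4 to 7 counts, and Etv1, Shox2 and Isl1 stay closer to 0.

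Genes of the His-Purkinje system and fast conduction were set beside Cntn2 and Etv1. Of 21 such genes, 19 were detected, against 71.8% of all genes, and 0 varied between hearts, against 1.80% of all genes tested. Among the highest were Myl4, the atrial light chain, at 1529 ± 168 TPM, Hopx, a homeodomain-only factor, at 515 ± 15.9 TPM, and Kcne1, the beta subunit of the slow delayed rectifier, at 168 ± 7.39 TPM. Myl4 is also on the list of atrial genes below. It was highest in heart 1 and is counted in the heart 1 shares of both lists. Gja5, which encodes the conduction connexin 40, was at 58.2, 40.2 and 32.8 TPM, with heart 1 highest and heart 3 lowest as for Cntn2 (edgeR adjusted p = 0.226). Counted after the values were seen, 11 of the 19 detected genes (57.9%) were highest in heart 1, against 42.5% of all detected genes. The median log2 difference of heart 1 from the mean of hearts 2 and 3 was 0.23 for these genes, against 0.03 for all detected genes.

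Genes of nodal currents and receptors were detected in 18 of 20 cases, against 71.8% of all genes. Of the 18, 12 (66.7%) were highest in heart 1, against 42.5% of all detected genes. The highest levels were those of Ryr2, the calcium release channel, at 189 ± 34.6 TPM, Slc8a1, the sodium-calcium exchanger, at 82.9 ± 18.6 TPM, Gjc1, the nodal connexin 45, at 69.2 ± 8.85 TPM and Kcnj5, a subunit of the acetylcholine-gated potassium channel, at 68.5 ± 12.4 TPM. Of the 19 with enough counts to be tested, 2 varied between hearts, against 1.80% of all genes tested. Cacna2d2, an auxiliary calcium channel subunit, had 17.8, 12.6 and 7.98 TPM (edgeR adjusted p = 0.0127), and Cacna1h, a T-type calcium channel, had 15.7, 10.8 and 7.52 TPM (edgeR adjusted p = 0.0246). Both were highest in heart 1 and lowest in heart 3, as were Cntn2 and Gja5, which did not pass the variation test.

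Atrial genes were measured because the nodes and much of the Etv1 and Hcn4 expression lie in the atria, and the share of atrium in each sample is not given. All 14 were detected, against 71.8% of all genes. Of these 14, 10 (71.4%) were highest in heart 1, against 42.5% of all detected genes. Their summed level was 22601, 22216 and 21466 TPM in hearts 1, 2 and 3. The highest were Myh6, which ventricles also express, at 12281 ± 318 TPM, and Nppa at 3992 ± 606 TPM. Myl7, the atrial regulatory light chain, had 3644, 2934 and 2728 TPM, the same order as Cntn2, whereas Nppa had 3292, 4328 and 4355 TPM. The genes of this list that varied between hearts did not move together: Clu (441, 265 and 236 TPM, edgeR adjusted p = 0.0133) and Angpt1 (29.9, 20.4 and 13.1 TPM, edgeR adjusted p = 0.0130) were highest in heart 1, and Bmp10, an atrial growth factor gene, was lowest there (51.7, 105 and 87.6 TPM, edgeR adjusted p = 0.00976). The part of dissection in the values of the 7 genes was not tested.

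Of 9 smooth muscle and outflow tract markers, 0 were highest in heart 1, against 42.5% of all detected genes. Only 1, Acta2, passed the variation test, against 1.80% of all genes tested. Their summed level was 2374, 3203 and 3950 TPM in hearts 1, 2 and 3. Acta2, the smooth muscle actin gene (303, 670 and 918 TPM, edgeR adjusted p = 7.96e-09), was highest in heart 3 and lowest in heart 1. Hcn2 had the same order but did not pass the test. Eln, the elastin gene, was the most abundant of the list at 1819 ± 369 TPM. Of 9 fibroblast and epicardial markers, 1 varied between hearts, against 1.80% of all genes tested. This was the mesothelial gene Msln (55.6, 33.0 and 28.0 TPM, edgeR adjusted p = 0.0255), in the order of Cntn2. Most of the list had another order. Only 2 of the 9 (22.2%) were highest in heart 1, against 42.5% of all detected genes. Heart 3 was the highest for 5 (55.6%), against 21.0% of all detected genes. Col3a1 and Postn were the most abundant at 1231 ± 77.3 and 782 ± 84.8 TPM. Of 8 endothelial markers, led by Cdh5 (255 ± 22.3 TPM), 0 passed the threshold. Of 6 thymus markers in the table, only Cd4 (1.12 ± 0.0901 TPM) and Cd8a (0.359 ± 0.144 TPM) had enough counts to be tested, and neither passed.

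Over the 12 lists, 144 further genes were in the table and 114 were detected (79.2%), against 71.8% of all genes. For each detected gene of the 7, the 2 list genes nearest in level over the 3 hearts were named by the root mean square difference of log2(TPM + 0.1). Hcn4 was nearest to Tbx18, at a distance of 0.20, and to Mrvi1, at 0.25. Etv1 was nearest to Stmn2 (0.08) and Tbx3 (0.12), and Shox2 to Slit2 (0.05), a guidance factor gene, and Cacna1d (0.30), the L-type channel of the node. Cntn2 was nearest to Cacna1d (0.18) and to Ager (0.28), a lung marker. Hcn2 was nearest to Notch3 (0.15) and Myh11 (0.16), both smooth muscle genes. The distances measure likeness of level over 3 hearts, which are too few for a correlation across samples.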

How the data were processed

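RNA of 3 hearts was extracted with Trizol and sequenced as DNBSEQ libraries, per the labels' protocols. The submitters' processing notes name HISAT and the build GRCm38.p6. No source used here gives the counting tool, the annotation or the strand setting. The deposited table holds 1 estimated count per gene and heart and the authors' FPKM, per the file headers; the first was read as an expected count because only 87.5% to 87.6% of values were within 0.005 of a whole number and the rest were fractional. The 2 columns of the authors' means and 1 line without values were not used. Chi-square per degree of freedom between hearts was 9.70 to 23.7, more than counting error gives, so no library is a repeat of another. The check cannot show whether the hearts came from separate animals.

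FPKM were rescaled to TPM. Counts were rounded for edgeR 4.0.16 (R 4.3.3). Pairs were tested two-sided with the quasi-likelihood test, with heart as block and an offset of TMM library size times the gene length implied by count and FPKM. A first version of the pair test estimated the spread from rows that all share the comparison gene's counts. It was run on the hearts, then gave false calls on simulated data and results that differed with the direction of the ratio, and was replaced. The version reported takes dispersion and prior from a fit of all genes and keeps the quasi-dispersion at 1 or more. The choice was thus made after calls of the first version had been seen, among them Isl1 over Hcn3 and, in 1 direction, Etv1 over Hcn4, which the reported version does not call. Simulated 2-fold differences were rarely recovered by the reported version. Variation was tested by the goodness of fit at the trended dispersion, and genes with at least 10 counts in all were tested. Adjustment was Benjamini-Hochberg over all genes. Alternatives used DESeq2 1.42.0, limma 3.58.1 on log2(TPM + 0.1), GENCODE lengths, other filters and left-out hearts.

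The 7 genes and the lists were chosen with earlier results of these data known. Genes named are the 7, from each list the 4 highest and those that varied (some are not reported here), Tbx3, Tbx18, Gja5 and the nearest genes. Channel shares were taken over Hcn2, Hcn3 and Hcn4, a set chosen after the values were seen. Poisson intervals cover counting error only.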

Additional observations from a re-analysis of the deposited data

How the results depend on the processing

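The count of pairs past the threshold was 18, and 17 to 19 over the alternatives (18 with any heart left out). Of 210 pair values under alternatives, 200 kept direction and call. The value turned for Hcn4 over Cntn2 without a length correction (-0.084) and for Cntn2 over Shox2 without heart 1 (-0.060), which ranged up to 0.28 with other hearts left out. Cntn2 over Shox2 passed the threshold with longest transcript lengths (0.66) and without a length correction (1.91). Isl1 over Hcn3 passed it with longest lengths, with limma and with no replicate block (edgeR or limma adjusted p = 0.0291, 0.0174 and 0.0419). Testing without the block of hearts gave 19 pairs.

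Levels depend on gene length, by construction. With longest transcript lengths, mean TPM was 38.3 for Hcn2, 8.66 for Etv1, 7.52 for Hcn4, 6.74 for Cntn2, 4.14 for Shox2, 0.648 for Isl1 and 0.190 for Hcn3. Without length, CPM was 46.4 for Hcn2, 21.5 for Etv1, 17.4 for Hcn4, 18.7 for Cntn2, 4.83 for Shox2, 0.617 for Isl1 and 0.289 for Hcn3. With longest lengths the Hcn2 share was 83.0% and the Hcn4 share 16.6%. With 1 heart left out, the Hcn2 share was 72.0% to 77.5% and the Hcn4 share 22.0% to 27.6%. Genes varying between hearts numbered 116 to 148 with 1 heart left out, where the test held fewer samples, and 203 to 276 under other alternatives. Hcn3 and Isl1 rest on 16 and 34 counts in all, which limits their ratios.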
